A study of Mus musculus with 43 samples.

Results

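Knockouts of 2078 metabolic genes were followed in CD8+ T cells from the day of transfer into mice to the primary tumour 7 days later, under anti-PD-1. The cells came from OT-I mice, whose CD8+ T cells recognize ovalbumin, crossed to mice that express Cas9 from the *Rosa26* locus (the Cas9 knock-in). They had been transduced with a lentiviral library of sgRNAs, the short guides that direct Cas9 to a gene, and were selected by the CD90.1 reporter that the vector carries. The recipients were Cas9 mice that bore orthotopic KPC_OVA tumours, grown from a pancreatic ductal adenocarcinoma line made to express ovalbumin, and the labels give no age for them. In the T0 group, transduced cells were taken in vitro on the day of transfer and received no antibody. In the primary tumour anti-PD-1 group, OT-I T cells that carried CD90.1 were isolated by sorting the tumour of mice in which anti-PD-1 was started on that day. Both groups therefore share the OT-I receptor, Cas9, the library and the CD90.1 selection. The comparison uses 6 of the 43 samples of the series, 3 per group, and 41 of the 43 carry values. The labels call the replicates biological, but do not say how many mice stand behind a tumour library. The KPC_OVA line is a single cell line, and an sgRNA marks the targeting of a gene and not a measured loss of its protein.

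In such a screen, each T cell carries an sgRNA that serves as its barcode. A knockout that slows division, kills the cell or keeps it from reaching or staying in the tumour lowers the share of its sgRNAs among the sorted cells, and these outcomes cannot be told apart. Activated CD8+ T cells divide rapidly, which draws on nucleotide synthesis, glycolysis, respiration, cofactors, isoprenoids and protein glycosylation, and anti-PD-1 blocks an inhibitory receptor on them. Many metabolic enzymes have paralogs, related genes of which a tissue often uses 1, so that knockouts of the others need not matter there.

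For each gene, log2(value + 1) was averaged across its 5 sgRNAs, less the median that the 250 nontargeting sgRNAs had in that library. This is the level of a knockout below. Its change is the mean level of the 3 tumour libraries minus that of the 3 T0 libraries, so that 1 unit is a factor of 2 and the change of the lowest sgRNAs is understated. A gene is called lost or gained where limma, fitted to these 6 libraries, gave p-values that stayed at or under 0.05 after Benjamini-Hochberg adjustment over all 2078 genes. The values carry no read depth, because the authors normalized them and corrected batches with ComBat. Summed signal ranged from 2882462 to 4228882 in T0 and from 2479993 to 3392628 in tumour libraries. The SD of the nontargeting sgRNAs was 1.08 to 1.11 in T0 and 1.58 to 1.65 in tumour libraries, so that the latter were the noisier. An sgRNA is called low when its change lies below the 5th percentile of the changes of the 250 nontargeting sgRNAs, -1.33.

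Of the 2078 knockouts, 442 were lost from the tumour, which is 21.3%, and 11 were gained, which is 0.529%. The fit of all 41 libraries, with 1 shared spread, called 247 of these 442 genes lost, 11.9% of all genes, and 0 gained, with 1 gene above 0 at an unadjusted p under 0.05 (limma), against 44 in the fit of the 6 libraries. Centring each library on all sgRNAs instead of the nontargeting ones gave 380 lost and 85 gained genes, and leaving out 1 library gave 5 to 31 gained genes. Lost knockouts had a median change of -3.26, and 238 of them had changes of -3 or less. Over all genes the median change was -0.20. In each of the 442 lost genes the 3 tumour libraries lay below all T0 libraries, as they did in 676 (32.5%) of all genes. *Hs6st1* (change -0.92, adjusted p = 0.0488 by limma after Benjamini-Hochberg adjustment) was the last gene inside the threshold and *Krt25* (-0.86, adjusted p = 0.0518) the first outside it.

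The deepest losses were those of ribosomal proteins, of *Ahcy*, which clears the S-adenosylhomocysteine left by methylation, and of the glycolytic aldolase *Aldoa*. *Ahcy* went from -0.26, 0.01 and 1.15 in T0 to -6.55, -6.60 and -7.11 in the tumour, a change of -7.05 with a standard error of 0.36 (limma, Benjamini-Hochberg adjusted p = 8.17e-07). Its libraries were far apart between the groups, and within T0 replicate 3 was the highest. That held for lost genes in general, whose median level was -0.10, 0.03 and 0.45 in T0 replicates 1 to 3, against 0.27, 0.21 and 0.22 for genes not called. Without T0 replicate 3 the count of lost genes was 386, all of them among the 442.

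**Figure D1:**
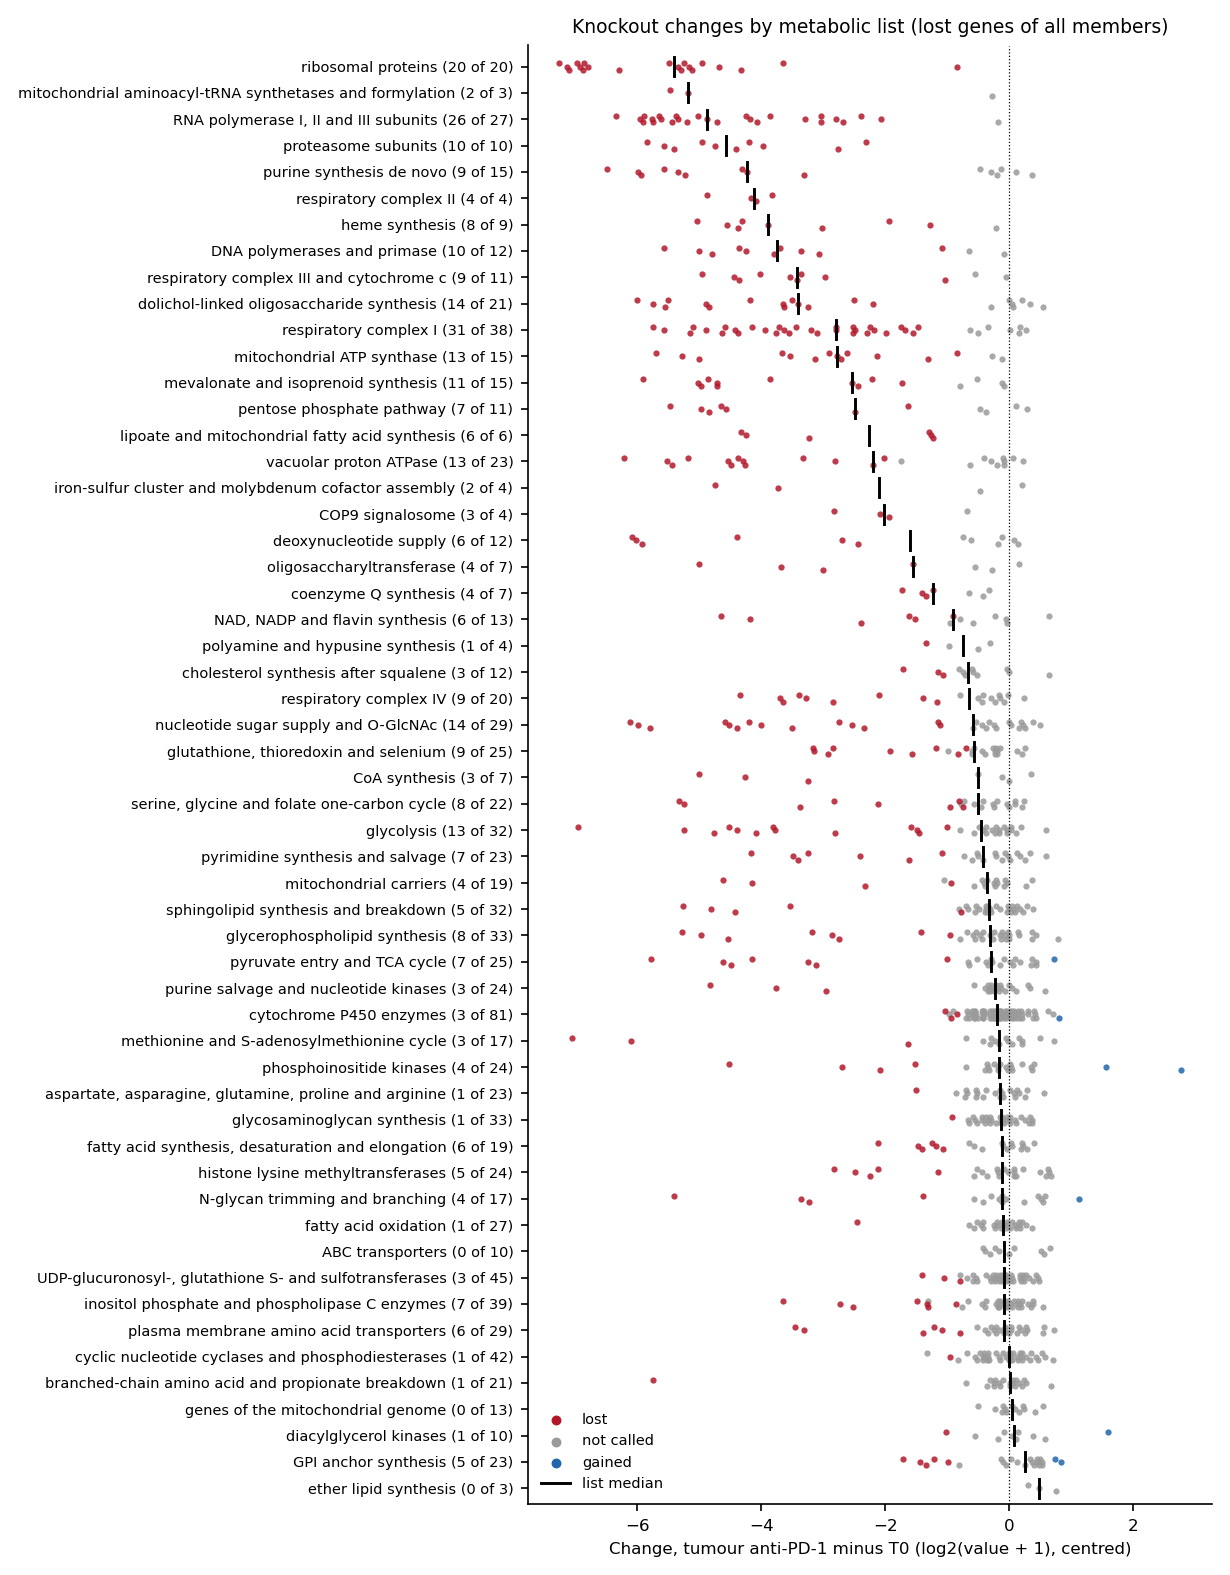
Change of every library gene in 55 metabolic lists with at least 3 members, as the mean log2 level of 3 primary tumour anti-PD-1 libraries minus that of 3 T0 libraries. Points are genes (red lost, grey not called, blue gained by limma), black bars are list medians, and the numbers beside each name are lost genes of all members. The medians of the ribosome, mitochondrial aminoacyl-tRNA synthetases, RNA polymerases, proteasome, purine synthesis and complex II, from -5.41 to -4.12, lie furthest to the left, and lists such as glycolysis or the TCA cycle split into a deep group and a group near 0.

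Genes that make RNA and protein, included in the library beside metabolic enzymes, were lost almost throughout. All 20 ribosomal protein genes were lost, with a median change of -5.41. The weakest was *Rps3a3* (-0.85), with 1 of 5 sgRNAs low, whereas the other 19 genes had changes of -3.65 or less. The fit of all 41 libraries called those 19 genes lost but not *Rps3a3*. Of the 27 subunits of RNA polymerases I, II and III, 26 were lost. Subunits of all 3 enzymes stood among them, led by *Polr3b* (-6.34), *Polr2b* (-5.95) and *Polr1b* (-5.90). *Polr3g*, an alternative subunit of RNA polymerase III, was the exception, at 0.28, 0.26 and 0.15 in T0 and -0.40, -0.50 and 1.06 in the tumour (adjusted p = 0.839 from limma). All 10 proteasome subunits were lost (median -4.58), from *Psmb3* (-5.84) to *Psmd1* (-2.31). So were both cytosolic aminoacyl-tRNA synthetases, *Mars* (-5.67) and *Eprs* (-4.43), which load amino acids on tRNA, and the mitochondrial ones *Ears2* (-5.47) and *Mars2* (-5.18).

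Knockouts of nucleotide synthesis were lost along the de novo pathways, and those of salvage mostly were not called. In de novo purine synthesis 9 of 15 genes were lost. They hold each enzyme of the chain from *Ppat*, which commits to the pathway, through *Gart*, *Pfas*, *Paics*, *Adsl* and *Atic* to IMP, and the branches to AMP (*Adss*) and GMP (*Impdh2*, *Gmps*). *Ppat* stood at -0.23, 0.17 and 0.89 in T0 and at -7.13, -5.34 and -6.18 in the tumour, a change of -6.49 (standard error 0.44). *Atic*, with the smallest loss of the 9, changed by -3.31. None of the genes for synthetases of the precursor PRPP was called. Of 24 genes of purine salvage and nucleotide kinases, 3 were lost, among them *Guk1* (-3.76), which phosphorylates GMP, and *Ak6* (-2.95). In pyrimidine metabolism 7 of 23 genes were lost. The 3 enzymes of UMP synthesis, *Cad* (-2.40), *Dhodh* (-3.24) and *Umps* (-3.41), were among them, as were *Ctps* (-3.49), which makes CTP, and *Cmpk1* (-4.16). For deoxynucleotides 6 of 12 genes were lost, led by the ribonucleotide reductase subunits *Rrm1* (-6.09) and *Rrm2* (-5.93) and by *Dut* (-6.02), which removes dUTP. Thymidylate supply followed with *Dtymk* (-4.39), *Tk1* (-2.70) and *Tyms* (-2.43). Of the 12 DNA polymerase and primase genes 10 were lost, from *Pold1* (-5.57) to *Pole3* (-1.08).

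One-carbon and methyl metabolism was lost in part. Of 22 genes of the serine, glycine and folate list 8 were lost, led by *Mthfd1* (-5.32), the cytosolic enzyme that interconverts one-carbon folates. The folate carrier *Slc19a1* (-3.37) and *Fpgs* (-2.12), which retains folates in the cell, were lost as well. The mitochondrial enzymes *Shmt2* (-0.78, adjusted p = 0.0777) and *Mthfd2* (-0.72, adjusted p = 0.132 by limma after Benjamini-Hochberg adjustment) were not called. The calls did not divide by compartment, since the mitochondrial *Mthfd1l* (-0.95) was lost and the cytosolic *Shmt1* (0.20) was not called. In the methionine cycle 3 of 17 genes were lost, *Ahcy*, *Mat2a* (-6.10), which makes S-adenosylmethionine, and *Mtr* (-1.63). At 17.6% this share is below the 21.3% of all genes. The change of *Ahcy* and *Mat2a* contrasts with a median of -0.17 over the list. *Mat2a* went from -1.10, -0.45 and 0.72 in T0 to -5.44, -7.37 and -6.31.

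In glycolysis 13 of 32 genes were lost. The largest loss was that of *Aldoa* (0.12, 0.29 and 1.78 in T0, -5.71, -5.86 and -7.10 in the tumour, change -6.95). Below it came *Pgam1* (-5.25), *Pgk1* (-4.76), *Tpi1* (-4.52), *Pkm* (-4.40), *Gapdh* (-4.08), *Eno1* (-3.81), *Ldha* (-3.78) and *Gpi1* (-2.81), which act between glucose 6-phosphate and lactate as well, each with 5 of 5 sgRNAs low. For glucose uptake and the first kinases the losses were smaller, at -1.58 for the transporter *Slc2a1*, -1.46 for hexokinase *Hk2* and -1.01 for phosphofructokinase *Pfkp*, as was that of the lactate carrier *Slc16a1* (-1.49). None of these 4 genes was lost by the fit of all 41 libraries, which called 8 of the 13. In the pentose phosphate pathway, which supplies ribose and NADPH, 7 of 11 genes were lost. *G6pdx* (-4.57), *Pgls* (-2.49) and *Pgd* (-5.48) form its oxidative arm and *Rpia* (-4.97), *Rpe* (-4.65) and *Tkt* (-4.84) belong to its ribose arm. *G6pd2* (-1.63), a near relative of *G6pdx*, had 1 of 5 sgRNAs low, and which gene that sgRNA hits is uncertain. *Pgd* stood at 0.13, 0.10 and 0.90 in T0 and at -5.97, -4.67 and -4.66 in the tumour. *Taldo1*, transaldolase of the same arm, was not called (change -0.47, adjusted p = 0.316 from limma).

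Paralogs were looked at in 28 families chosen after the values were seen. Exactly 1 of 2 to 5 members was lost in 22 of them, 2 members were lost in 4 and none in 2. Because of that choice, these counts do not give the share among all paralog families of the library. Outside the 28, the elongases *Elovl1* to *Elovl7* and the ceramide synthases *Cers1* to *Cers6* had no lost member. Among the 34 members not lost in families with 1 loss, the lowest change was -0.80, for *Eno1b*, a near relative of *Eno1*, followed by -0.63 for the V-ATPase subunit *Atp6v0e2*. *Impdh2* illustrates this, at -0.02, -0.03 and 0.89 in T0 and -3.84, -3.65 and -4.33 in the tumour, whereas *Impdh1* stood at 0.22, 0.15 and 0.21 in T0 and 0.64, 0.09 and 0.16 in the tumour, with overlap. In glycolysis the families with 1 loss were those of *Pgam1*, *Pgk1*, *Eno1*, *Pkm* and *Ldha* and, with smaller losses, of *Hk2* and *Pfkp*, while relatives such as the testis enzyme *Pgk2* (-0.57) and the brain aldolase *Aldoc* (-0.42) were not called. Among the 28, the families with no lost member were the PRPP synthetases and the pantothenate kinases. Besides *Aldoa* its relative *Aldoart1* (-0.98) was lost, and besides *Gapdh* the pseudogene *Gapdh-ps15*. Both members were lost for the NAD kinases *Nadk* and *Nadk2* and for the pyrophosphatases *Ppa2* (-4.80) and *Ppa1* (-2.94).

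The TCA cycle was lost in part. Of 25 genes of pyruvate entry and the cycle, 7 (28%) were lost, against 21.3% of all genes, and 1, *Idh3g* (0.72), was gained. The losses included the catalytic subunit of isocitrate dehydrogenase *Idh3a* (-3.25), oxoglutarate dehydrogenase (*Ogdh* at -5.77, *Dlst* at -4.62 and *Dld* at -4.49), *Suclg1* (-1.0) and fumarase *Fh1* (-3.11). *Ogdh* went from -0.74, -0.42 and 0.65 in T0 to -5.18, -6.39 and -6.25 (standard error of the change 0.42). Apart from *Dld*, which pyruvate dehydrogenase shares with oxoglutarate dehydrogenase, the genes that bring pyruvate in were not called. For the pyruvate dehydrogenase subunit *Pdha1* the levels were -0.13, 0.05 and 0.15 in T0 and 0.16, 0.35 and 0.64 in the tumour, which do not overlap but did not pass the test (adjusted p = 0.35 from limma). The libraries of citrate synthase *Cs* overlapped, at 0.77, 0.41 and 0.25 in T0 and -0.15, -0.29 and 0.85 in the tumour. Lipoate, the cofactor of these dehydrogenases, was represented by 6 genes of its synthesis and of mitochondrial fatty acid synthesis, and all 6 were lost. *Lias* (-4.32), *Lipt1* (-4.25) and *Lipt2* (-3.24), which make and transfer lipoate, had larger losses than *Mecr* (-1.29), *Mcat* (-1.26) and *Oxsm* (-1.23). *Gcsh* (-2.82), the lipoate-bearing protein of glycine cleavage, was lost, as was *Dld*, which that complex shares with these dehydrogenases.

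Nuclear genes of all 5 complexes of oxidative phosphorylation were lost. For complex I, which oxidizes NADH, 31 of 38 genes were lost (median -2.80 over the list). *Ndufa1* stood at -0.44, 0.01 and 0.27 in T0 and at -5.95, -6.53 and -4.94 in the tumour, and the core subunit *Ndufv1* changed by -4.89. All 4 subunits of complex II were lost, *Sdha* (-4.88), *Sdhb* (-4.16), *Sdhc* (-4.08) and *Sdhd* (-3.82), each with 5 of 5 sgRNAs low. Of complex III and cytochrome c, 9 of 11 genes were lost, led by *Uqcrc1* (-4.96). In complex IV 9 of 20 genes were lost, among them the subunit *Cox6c* (-4.35) and the assembly factors *Cox15* (-3.69), *Cox11* (-3.64), *Cox17* (-2.84) and *Cox10* (-2.11). Its subunit *Cox4i1*, which the list's name pattern missed, was lost as well (-2.60). Of 15 ATP synthase genes 13 were lost, from *Atp5a1* (-5.70) and *Atp5b* (-5.28) of the catalytic head to *Atp5g1* (-0.84), 1 of 3 genes for the c subunit, the other two of which were not called. The fit of all 41 libraries called fewer, with 17 genes for complex I and 5 for the ATP synthase.

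The library also held sgRNAs against 13 protein genes of the mitochondrial DNA, the partners of these subunits. None was lost, their median change was 0.05, and 4.62% of their sgRNAs were low, against 5.2% of nontargeting sgRNAs. Their changes ranged from -0.50 to 0.55. Whether Cas9 with these sgRNAs cut mitochondrial DNA was not tested, so these values do not show whether the cells can do without those genes.

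Cofactor pathways held many of the remaining losses. Of 9 heme synthesis genes 8 were lost, with a median of -3.89 over the list. *Urod*, the uroporphyrinogen decarboxylase, went from -0.05, 0.57 and 0.55 in T0 to -4.79, -3.72 and -5.55. *Alas1*, the housekeeping first enzyme, changed by -3.89, and its erythroid counterpart *Alas2* was the member not called (-0.21). In CoA synthesis the last 3 steps were lost (*Ppcs* at -5.00, *Ppcdc* at -4.27 and *Coasy* at -3.24). For iron-sulfur clusters *Nfs1* (-4.74), which provides the sulfur, was lost, and the molybdenum cofactor genes were not called. *Nampt* (-4.65), the salvage enzyme of NAD synthesis, and the flavin enzymes *Rfk* (-4.18) and *Flad1* (-2.40) led 6 lost genes of 13. Coenzyme Q synthesis had 4 lost genes of 7 with smaller changes, from -1.72 for *Coq5* to -1.24 for *Coq7*, and the fit of all 41 libraries called none of them. In the list of glutathione, thioredoxin and selenium 9 of 25 genes were lost. These included thioredoxin reductase *Txnrd1* (-3.17), the glutathione synthesis enzymes *Gss* (-2.84) and *Gclc* (-1.92), and *Sepsecs* (-3.15), *Sephs2* (-2.93) and *Pstk* (-1.19), which make selenocysteine. *Gpx4*, the selenoenzyme that repairs lipid peroxides, stood at 0.57, 0.50 and 0.53 in T0 and at -1.23, -0.92 and -0.96 in the tumour, a change of -1.57 (standard error 0.21).

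The vacuolar proton ATPase, which acidifies lysosomes, had 13 of 23 genes lost. Its membrane ring subunit *Atp6v0c* stood at -0.91, -0.49 and 0.41 in T0 and at -6.01, -6.44 and -7.18 in the tumour (change -6.22). In each of 7 subunit families with paralogs 1 gene was lost. *Atp6v1h*, which has no paralog in the list, had 4 of 5 sgRNAs low but was not called. Its tumour libraries spread from -3.47 over -1.46 to -0.15 (adjusted p = 0.106 from limma).

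The mevalonate pathway, the source of isoprenoids and sterols, had 11 of 15 genes lost. *Hmgcs1* went from -0.18, -0.01 and 0.64 in T0 to -6.70, -5.75 and -4.82, and *Mvk* (-4.72), *Pmvk* (-4.85), *Mvd* (-5.02) and *Fdps* (-3.85) follow it in the chain. The geranylgeranyl branch was deeply lost with *Ggps1* (-4.97), as was the farnesyltransferase subunit *Fnta* (-4.71). The sterol branch after squalene had 3 lost genes of 12, *Sqle* (-1.72), *Msmo1* (-1.15) and *Lss* (-1.06), and none of them was lost by the fit of all 41 libraries. That share, 25%, is near the 21.3% of all genes. *Fdft1*, the entry to that branch, was not called (-0.60, adjusted p = 0.1 from limma). The dolichol branch carries on into N-glycosylation.

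N-glycosylation was lost at some steps and not at others. The glycan is built on dolichol, moved to proteins and then trimmed and extended in the Golgi. Of 21 genes of the dolichol stage 14 were lost. They cover dolichol itself (*Dhdds* at -5.56, *Nus1* at -4.88 and *Dolk* at -4.17), the first sugars (*Dpagt1* at -6.01, *Alg13* at -5.75, *Alg14* at -3.63), the mannoses added in the cytosol (*Alg1* at -4.84, *Alg2* at -5.50, *Alg11* at -3.64) and the glucoses that end the chain (*Alg5* at -3.25, *Alg6* at -3.51, *Alg8* at -2.20, *Alg10b* at -2.50). *Dpagt1* stood at -0.67, -0.65 and 0.37 in T0 and at -6.47, -6.01 and -6.51 in the tumour. For the mannoses added in the lumen, none of *Alg3*, *Alg9* and *Alg12* or of the donor synthase *Dpm1*, *Dpm2* and *Dpm3* was called, with changes from -0.30 to 0.54. Of the transferase 4 of 7 genes were lost, led by *Rpn1* (-5.01), and its catalytic subunits were not called. In trimming, the glucosidases *Mogs* (-3.36) and *Ganab* (-3.23) were lost, and so was the core fucosyltransferase *Fut8* (-1.39).

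In the Golgi, neighbouring steps went in opposite directions. *Mgat1*, which adds the first branch sugar, was lost, at -0.59, -0.12 and 0.54 in T0 and -4.69, -5.82 and -5.87 in the tumour. *Mgat2*, the next transferase, was gained, at 0.71, 0.47 and 0.39 in T0 and 1.5, 1.90 and 1.53 in the tumour (change 1.12, standard error 0.22, limma, Benjamini-Hochberg adjusted p = 0.00335). Its sgRNAs changed by 0.49, 0.73, 1.33, 1.41 and 1.66. *Slc35a3* (0.95), a Golgi carrier of N-acetylglucosamine, and *B3gnt2* (1.34), which extends poly-N-acetyllactosamine, were gained too. None of these 3 genes was called by the fit of all 41 libraries. Galactose addition was lost, with the Golgi carrier of UDP-galactose *Slc35a2* (-5.58) and the transferase *B4galt1* (-3.84). Sialic acid supply was lost as well, at *Gne* (-4.59), *Nans* (-2.54), *Cmas* (-2.74) and the carrier *Slc35a1* (-4.16), 4 of 5 genes of this list. Core 1 O-glycans lost *C1galt1* (-2.14), its chaperone *C1galt1c1* (-2.83) and the sialyltransferase *St3gal1* (-1.81). These 3 groups were put together after the values were seen. Among the 29 genes of nucleotide sugars 14 were lost. They include the 4 enzymes from fructose 6-phosphate to UDP-N-acetylglucosamine (*Gfpt1* at -5.99, *Gnpnat1* at -4.19, *Pgm3* at -4.39 and *Uap1* at -3.50). *Ogt* (-4.0), which puts N-acetylglucosamine on intracellular proteins, and GDP-mannose supply (*Gmppb* at -6.12 and *Pmm2* at -2.34) were lost too.

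GPI anchors, the glycolipids that hold proteins such as CD90.1 on the surface, had members called in both directions. Of 23 genes 5 were lost, which at 21.7% is near the 21.3% of all genes, and 2 were gained. The 5 are the subunits of the transamidase, which attaches the finished anchor, *Pigt* (-1.72), *Pigu* (-1.43), *Pigk* (-1.35), *Pigs* (-1.22) and *Gpaa1* (-0.99). *Pigu* stood at 0.26, 0.41 and 0.43 in T0 and at -1.09, -1.48 and -0.62 in the tumour. The genes that build the anchor were not called or were gained (*Pigm* at 0.83 and *Pigw* at 0.73), and the list's median was 0.26. *Piga*, of the first step, stood at 0.51, 0.23 and -0.07 in T0 and at 1.26, 0.27 and 0.62 in the tumour. These changes were small, no member had 4 of 5 sgRNAs low, and the fit of all 41 libraries called none. CD90.1, the marker on which the cells were sorted, is itself GPI-anchored, and the part of that sort in these values was not tested. Glycosaminoglycan synthesis had 1 lost gene of 33, *Hs6st1*.

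Lipid pathways were lost in part, at shares on both sides of the 21.3% of all genes. In the sphingolipid list 5 of 32 genes (15.6%) were lost, with the first 2 steps, *Sptlc1* (-4.80), *Sptlc2* (-4.42) and *Kdsr* (-5.26), and *Ugcg* (-3.54), which makes glucosylceramide, well below *Degs1* (-0.77). The lactosylceramide enzyme *B4galt5* (-3.68) was lost outside any list. Of 33 glycerophospholipid genes 8 (24.2%) were lost, led by phosphatidylinositol synthase *Cdipt* (-5.28) and its supplier *Cds2* (-4.97). *Cdipt* stood at -0.28, 0.08 and 0.88 in T0 and at -4.94, -5.08 and -5.15 in the tumour. Phosphatidylethanolamine synthesis was lost in both routes, through *Pisd* (-4.54) in mitochondria and through *Etnk1* (-2.86) and *Pcyt2* (-2.75) from ethanolamine, and cardiolipin synthesis through *Pgs1* (-3.19) and *Crls1* (-1.43). Fatty acid synthesis and elongation had 6 lost genes of 19 (31.6%) with moderate changes, *Acaca* (-2.11), which makes malonyl-CoA, *Acly* (-1.41), *Fasn* (-1.24), *Scd1* (-1.18), *Tecr* (-1.46) and *Hsd17b12* (-1.07), and none was lost by the fit of all 41 libraries. Of 27 genes of fatty acid oxidation 1 (3.7%) was lost, *Acad9* (-2.46), which also assembles complex I. None of the 3 ether lipid genes was lost.

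Phosphoinositide and diacylglycerol enzymes held losses and the 3 largest gains. The 4-kinases *Pi4kb* (-4.52) and *Pi4ka* (-2.69), *Pikfyve* (-2.08) and the class III kinase *Pik3c3* (-1.52) were lost. They are 4 of 24 kinase genes, at 16.7% below the 21.3% of all genes. *Pik3cd* and *Pik3r1*, which encode the catalytic p110 delta and the regulatory p85 alpha of the class I kinase that makes PIP3 in T cells, were gained. *Pik3cd* stood at 0.47, 0.46 and -0.61 in T0 and at 2.16, 3.24 and 3.23 in the tumour, a change of 2.77 (standard error 0.38, limma, Benjamini-Hochberg adjusted p = 0.000242). For *Pik3r1* the levels were 0.72, 0.47 and -0.04 in T0 and 1.57, 1.98 and 2.29 in the tumour. A phosphatase that acts on PIP3 went the other way, with *Inpp5d* (-1.31) at 0.08, 0.04 and 0.26 in T0 and -1.30, -1.58 and -0.66 in the tumour. The tumour libraries of *Inpp5d* lay below all T0 libraries, as they did in 676 (32.5%) of all genes. Those of *Pik3cd* and *Pik3r1* lay above all T0 libraries, and the share of all genes that did so was not counted. None of these 3 genes was called by the fit of all 41 libraries. *Inpp5d* is among 7 lost genes of 39 (17.9%) in the list of inositol phosphates and phospholipase C, led by *Inpp5k* (-3.65), *Ippk* (-2.73) and *Itpkb* (-2.52). *Dgkz* (1.60), which removes diacylglycerol downstream of the T cell receptor, was gained, and *Dgkq* (-1.03) was the 1 lost gene of 10 diacylglycerol kinases. *Dgkz* was not called by that fit either (adjusted p for *Pik3cd*, *Pik3r1* and *Dgkz* = 0.137, 0.51 and 0.649 from limma).

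**Figure D2:**
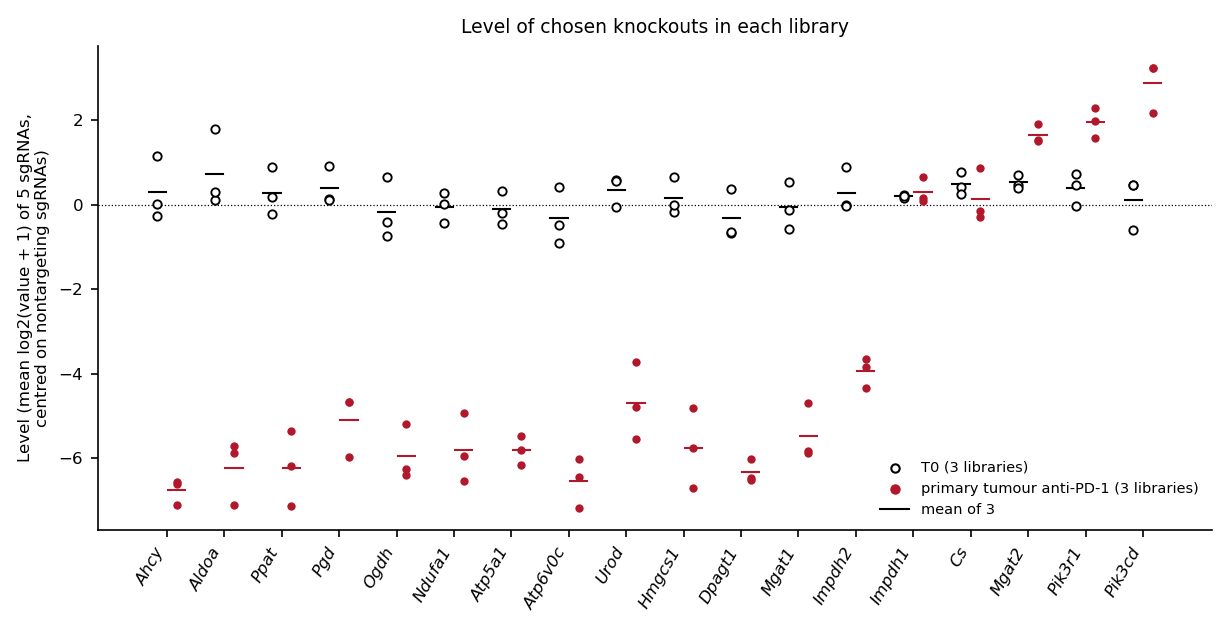
Level of 18 knockouts in each of the 3 T0 libraries (open circles) and 3 primary tumour anti-PD-1 libraries (red), as mean log2(value + 1) of 5 sgRNAs centred on the nontargeting sgRNAs, with bars at the group means. The lost genes from *Ahcy* to *Impdh2* lie between -7.18 and -3.65 in the tumour, *Impdh1* and *Cs* overlap with T0, and *Mgat2*, *Pik3r1* and *Pik3cd* lie above it.

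Of 29 amino acid transporter genes 6 were lost, which at 20.7% is near the 21.3% of all genes. They were led by *Slc7a5* (-3.45) and *Slc3a2* (-3.31), the 2 chains of the large neutral amino acid transporter. *Slc7a5* stood at 0.07, 0.12 and 0.22 in T0 and at -3.70, -2.89 and -3.37 in the tumour. Of 19 mitochondrial carriers 4 (21.1%) were lost, with the phosphate carrier *Slc25a3* (-4.62) and the S-adenosylmethionine carrier *Slc25a26* (-4.15) ahead of *Slc25a22* (-0.94). The 1 lost gene of 21 in branched-chain amino acid breakdown, *Hsd17b10* (-5.74), also encodes a protein that mitochondria need to process tRNA. Of 4 polyamine genes *Amd1* (-1.35) was lost. Several lists lay below the share of all genes. Lost genes numbered 3 of 81 cytochrome P450 enzymes, with a lowest change of -1.03, 3 of 45 conjugating enzymes, 1 of 42 cyclic nucleotide enzymes and 0 of 10 ABC transporters. Among 24 histone lysine methyltransferases 5 (20.8%, near the share of all genes) were lost, led by *Dot1l* (-2.82) and *Kmt2a* (-2.49). Of 4 subunits of the COP9 signalosome 3 were lost, of which *Cops6* (-2.83) alone was lost by the fit of all 41 libraries.

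Of the 442 lost genes, 366 belonged to at least 1 of 56 lists and 76 to none of these. The 56 leave out the 6 groups put together after the values were seen, which hold *Copa* and *Ppa2*. The 76 include *Dnmt1* (-5.24), which maintains DNA methylation, the nuclear pore genes *Nup93* (-5.08) and *Nup205* (-4.87), the coat protein *Copa* (-5.22), the phosphopantetheinyl transferase *Aasdhppt* (-5.08), the signal peptidase subunits *Spcs2* (-4.25) and *Spcs3* (-3.52), *Pnpt1* (-4.73), which processes mitochondrial RNA, and *Ppa2*. *Gapdh-ps15* (-5.78) is named as a pseudogene of *Gapdh*, and several others carry provisional symbols, such as *Gm4459* (-3.54). Whether the sgRNAs of pseudogenes and provisional genes also match a coding paralog could not be read from the values, so which gene those hit is uncertain. The 11 gained genes include, beside those named with their pathways, *Aspa* (0.86), which splits N-acetylaspartate, and *Cyp2a12* (0.81).

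The 5 sgRNAs of a gene were then set against each other. Of the 10390 gene-targeting sgRNAs 2049 (19.7%) were low. All 5 were low in 213 lost genes (48.2%), 4 in 84, 3 in 49, 2 in 53, 1 in 36 and 0 in 7. The median change went with this count, from -4.64 with 5 low sgRNAs to -1.19 with 2 and -0.80 with 0. Of the 1625 genes not called, 1294 had 0 and 306 had 1 low sgRNA, and 25 had 2 or more. Because the gene's change is the mean of its sgRNAs, these counts describe the calls and are not independent of them.

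**Figure D3:**
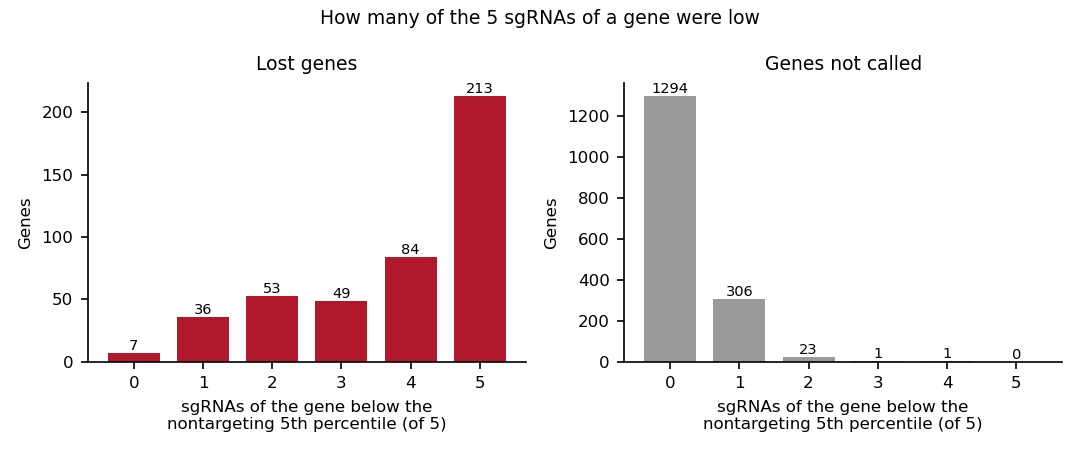
Number of genes by how many of their 5 sgRNAs changed by less than the 5th percentile of the 250 nontargeting sgRNAs, for 442 lost genes (left) and 1625 genes not called (right). All 5 were low in 213 lost genes, and 0 were low in 1294 of the genes not called.

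How many sgRNAs were low also went with the call by the larger fit. That fit holds the same 6 libraries and gives each gene the same change, with another estimate of the spread. These counts therefore describe the calls as well and are not independent of them. The fit of all 41 libraries called 196 of the 213 genes with 5 low sgRNAs, 47 of the 84 with 4, 4 of the 49 with 3 and 0 of the 96 with fewer. By list, at least 4 sgRNAs were low in 19 of 20 lost ribosomal genes, in 25 of 26 RNA polymerase genes, in all 9 lost purine synthesis genes, in 24 of 31 for complex I, in all 4 of complex II and in all 13 of the vacuolar ATPase. The same held for 10 of 13 lost glycolysis genes, 12 of 14 dolichol genes and 12 of 14 nucleotide sugar genes, but for 1 of 6 in fatty acid synthesis, 1 of 3 in sterol synthesis, 1 of 4 in coenzyme Q synthesis and none in the lists of cytochrome P450 and of conjugating enzymes. Tested singly with adjustment over all 10640 sgRNAs, limma called 1383 sgRNAs lost (13%), of which 1297 belonged to lost genes, 82 to genes not called and 4 were nontargeting. Without T0 replicate 3 that count was 865.

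Within lost genes, sgRNAs still differed in depth. Their changes had a standard deviation within a gene of 1.37 at the median, against 0.62 in genes not called. Differences between genes made up 49.2% of the variance of sgRNA changes among lost genes, 70.4% over all genes and 0.39% among genes not called. Because lost and not called genes were set apart by the mean of these same sgRNAs, the shares within these classes describe the calls. They are no test of agreement. The 5 sgRNAs of *Ears2* lay close together, at -5.96, -5.72, -5.52, -5.13 and -5.04, as did those of *Atp5d*, at -5.71, -5.19, -5.12, -4.77 and -4.20. In *Rpia*, ribose 5-phosphate isomerase, all 5 were low but they ranged widely, at -8.55, -7.77, -5.15, -1.78 and -1.61. *Atp6v1b2*, a V-ATPase subunit, had 4 low sgRNAs and 1 above 0, at -7.78, -7.04, -6.88, -4.62 and 0.43. So did *Pola2*, of the DNA polymerase that works with primase, at -7.87, -4.84, -4.82, -4.41 and 0.74. *Spcs3*, of the signal peptidase, had a like pattern, at -7.82, -5.18, -2.69, -2.55 and 0.62. For *Alg14* the sgRNAs formed 2 groups, at -6.62, -5.62, -5.11, -0.61 and -0.18. Of the 2210 sgRNAs of lost genes 81 (3.67%) had changes above 0, and they belonged to 75 genes.

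**Figure D4:**
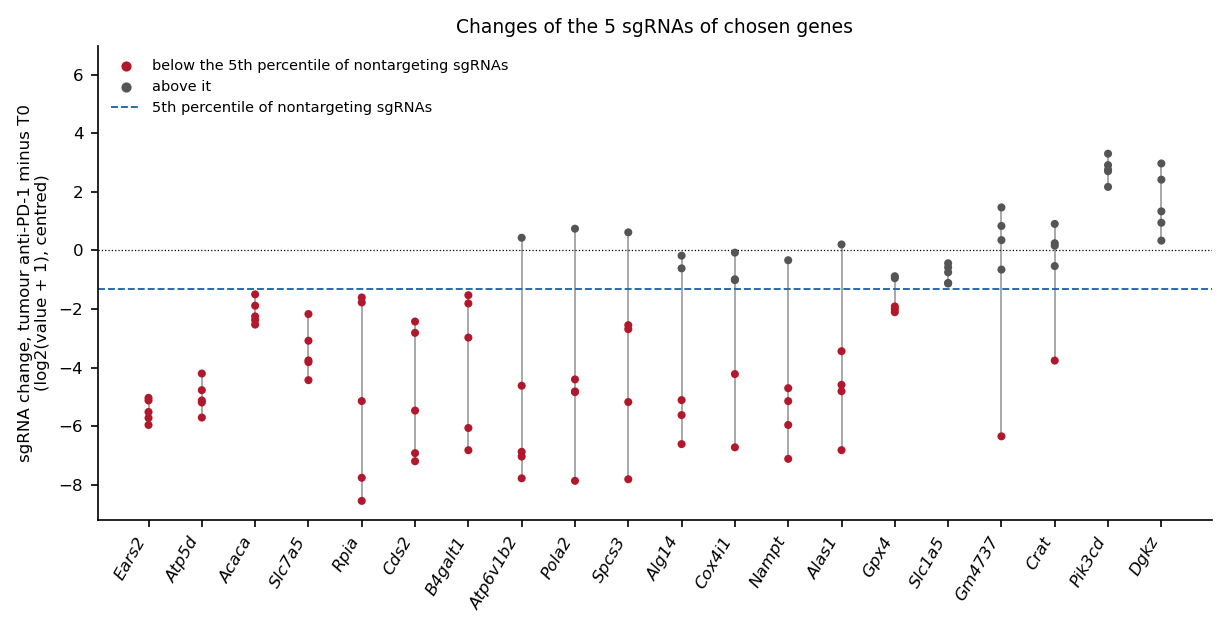
Change of each of the 5 sgRNAs of 20 genes, as log2 level in 3 primary tumour anti-PD-1 libraries minus that in 3 T0 libraries. Red points lie below the dashed line, the 5th percentile of the nontargeting sgRNAs at -1.33. *Ears2* and *Atp5d* have narrow ranges, *Atp6v1b2*, *Pola2* and *Spcs3* each have 1 sgRNA above 0, *Gm4737* and *Crat* have a single low sgRNA, and all sgRNAs of *Pik3cd* lie above 2.

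In some genes that were not called 1 sgRNA stood apart. *Gm4737*, a provisional gene, had sgRNAs at -6.35, -0.65, 0.35, 0.84 and 1.47 (adjusted p of the gene = 0.0664 from limma). *Crat*, carnitine acetyltransferase, had -3.76, -0.53, 0.16, 0.25 and 0.91. Conversely, a few lost genes had uniform but small changes, such as the glutamine transporter *Slc1a5*, whose sgRNAs changed by -1.13, -1.11, -0.75, -0.58 and -0.44 and none of which was low. When the sgRNA with the largest decrease was left out of every gene, 374 genes were lost, of which 373 were among the 442.

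The libraries were also compared sgRNA by sgRNA. Since the lost genes were called from these same 6 libraries, the values below describe the calls and are no test of them. For each replicate number the sgRNA changes were taken separately, without any claim that numbers pair samples, so that the 3 sets share no library. Across the 2210 sgRNAs of lost genes, which are not independent replicates, the sets correlated at r = 0.60 to 0.65. Across the 8125 sgRNAs of genes not called r was 0.05 to 0.11, and across nontargeting sgRNAs 0.00 to 0.09. In the single sets, 56.3% of the sgRNAs of lost genes were low in all 3, against 0.591% of those of genes not called. Many sgRNAs of lost genes had reached their lowest value, shared exactly with at least 1 other library of the same replicate number. In tumour replicates 1 to 3 this was so for 13.7%, 19.7% and 19.1% of sgRNAs of lost genes and for at most 0.148% of those of genes not called, so that the deepest changes are bounded by that value. With these values set to 0, 441 genes were lost.

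Many of the same lists stood low in the primary tumour under IgG, the control antibody, and in the spleen under anti-PD-1, each set against the same 3 T0 libraries. The median change of ribosomal protein genes was -5.41 in tumour anti-PD-1, -5.56 in tumour IgG and -5.91 in spleen. For de novo purine synthesis it was -4.22, -4.09 and -3.67, for complex I -2.80, -2.45 and -3.18, and for the vacuolar ATPase -2.19, -2.93 and -3.49. Some lists were nearer to no change in the spleen. In the same order the median was -2.01, -1.73 and -0.23 for the COP9 signalosome and -1.24, -1.23 and -0.34 for coenzyme Q synthesis. For the oligosaccharyltransferase it was -1.55, -2.14 and -0.70. The difference itself was tested without T0. Against tumour IgG, limma with Benjamini-Hochberg adjustment called 3 genes lower (0.144%) and 0 higher (0%), with 171 genes at an unadjusted p under 0.05. Leaving out any 1 of these 6 libraries left 0 or 1 gene called lower. The 3 genes were *Rpia*, *Atp5d* and *Slc35c1*, the Golgi carrier of GDP-fucose. *Slc35c1* stood at 0.02, -0.44 and 0.06 in tumour IgG and at -2.23, -1.45 and -2.96 in tumour anti-PD-1, a difference of -2.09 (standard error 0.38, adjusted p = 0.0319). The 442 lost genes were chosen for low values in the same anti-PD-1 libraries, so that summaries over them are descriptions. Over these genes the difference from IgG ranged from -2.09 to 1.39, with a median of -0.20 against a median standard error of 0.38 per gene, and the median over all genes was 0.06. Against the spleen under anti-PD-1, limma called 0 genes lower (0%) and 0 higher, with 105 at an unadjusted p under 0.05. The authors had corrected these values for batches between organs, so this count does not show whether tumour and spleen lose the same knockouts. The median difference was 0.04 over the lost genes and 0.35 over all genes, so that genes at large stood lower in the spleen on this centring. The standard error per lost gene was larger there, 0.61 at the median.

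**Figure D5:**
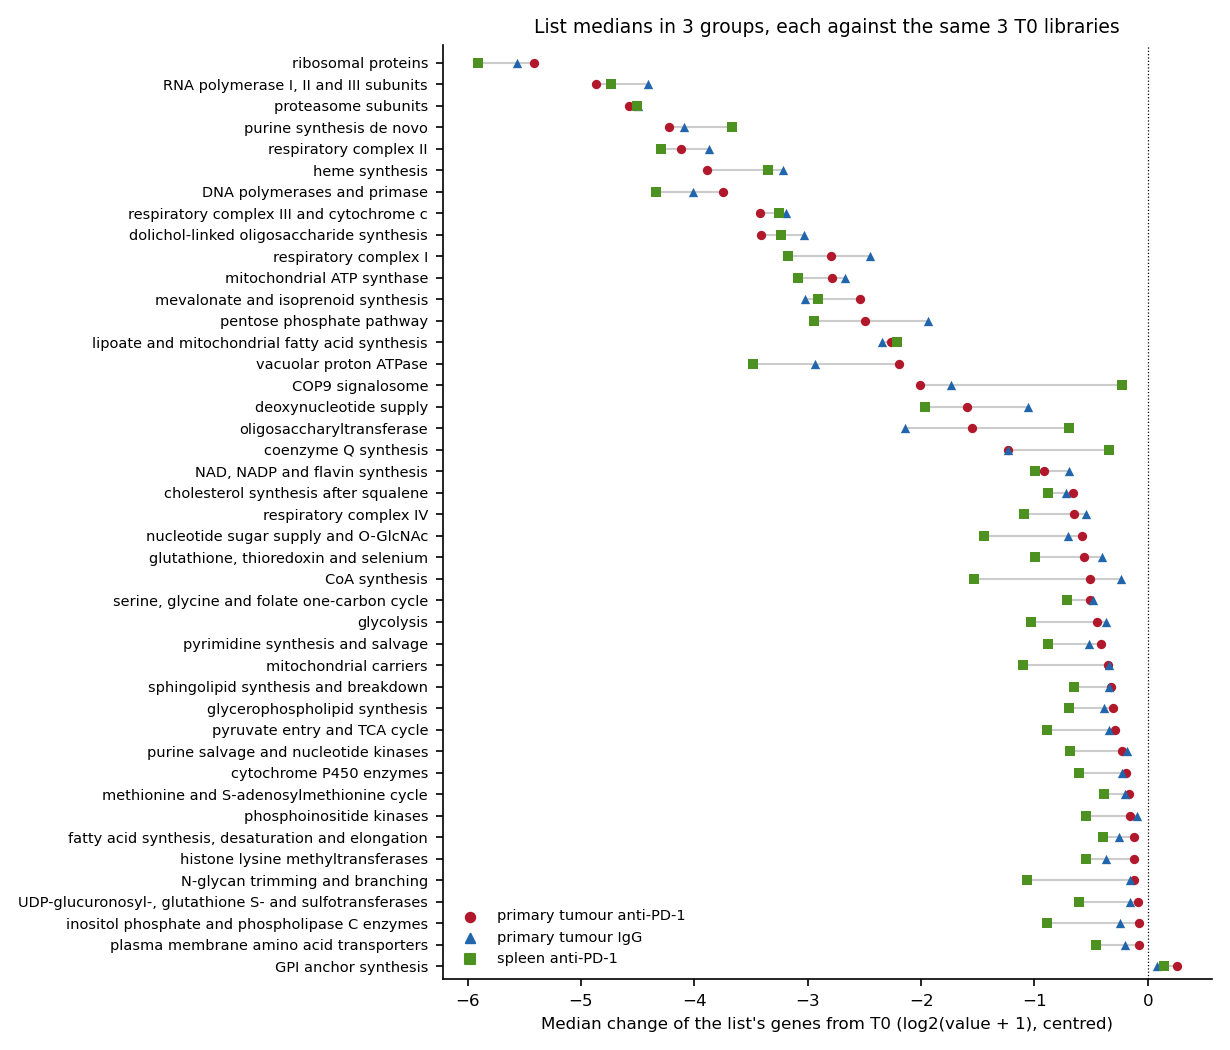
Median change from T0 of the genes of each list with at least 3 lost members, the lists put together after the values were seen left out, in primary tumour anti-PD-1 (red circles), primary tumour IgG (blue triangles) and spleen anti-PD-1 (green squares), on the log2 scale. The 3 groups share the T0 libraries. The ribosomal list lies lowest in all 3, from -5.91 to -5.41, and the spleen lies to the left of both tumour groups in most lists near 0. It lies well to the right of both for the COP9 signalosome, coenzyme Q synthesis and the oligosaccharyltransferase.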

How the data were processed

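Genomic sgRNA cassettes of sorted T cells had been sequenced, and the authors counted sgRNAs with MAGeCK, normalized to the nontargeting sgRNAs and corrected batches between organs with ComBat. The deposited values are therefore a normalized signal that is not whole, the read depth is unknown, and no count test, interval or floor could be used. Shrinkage and shared lowest values from these steps could change single sgRNA values. Values were taken as log2(value + 1), summarized per gene as the mean of 5 sgRNAs, and shifted so that each library's nontargeting median was 0. Linear models with moderated errors (limma 3.58.1 in R 4.3.3) were fitted to the groups compared, with Benjamini-Hochberg adjustment over 2078 genes or 10640 sgRNAs and an adjusted p threshold of 0.05. The fit was tested on simulated data with 200 changed genes. Figures were drawn with matplotlib 3.10.9.

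The p-values cover the spread between these libraries, whose mice and cultures are not described by the labels. The members, pathway lists and tests were chosen with earlier results of these data known, and the groups of sialic acid, galactose, core 1 O-glycan, GPI transamidase, COPI and pyrophosphatase genes and the paralog families after the values were seen. COPI coat genes with a membrane fusion gene gave 4 lost of 4, and the pyrophosphatases 2 of 2. Named genes were drawn from the 10 deepest losses, from each list up to 5 lost members and the 2 nearest 0 (or the lost member where only 1 or 2 were lost), from the 5 genes with the most disagreeing sgRNAs, the 5 with a single low sgRNA, the 3 largest gains and 10 losses in no list. Not all of them are printed, and genes outside this rule were added after their values were seen. Of the 2078 symbols 2072 matched the RefSeq gene table, 33 of them by an older symbol. Spleen and tumour replicates of the same number deviated together (r = 0.20, 0.20 and 0.17). The labels do not say that the numbers pair samples, and the source of this was not tested. A fit with the replicate number as a block also called 0 genes in either direction. Alternatives were another pseudocount, other centrings, a filter on low sgRNAs, other summaries of the sgRNAs, other variance settings, the replicate block, all 41 libraries in 1 fit, and leaving out each library. The authors' own sgRNA sequences were not used here.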

Additional observations from a re-analysis of the deposited data

Results flagged for a closer look

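The change from T0 in the primary tumour differed between anti-PD-1 and IgG for 3 genes, by limma on the 6 tumour libraries with Benjamini-Hochberg adjustment over 2078 genes. *Slc35c1*, the Golgi carrier of GDP-fucose, was lower under anti-PD-1 by -2.09, the ribose 5-phosphate isomerase *Rpia* by -1.92 and the ATP synthase subunit *Atp5d* by -1.81. The lowest adjusted p was 0.0319, and 171 genes had an unadjusted p under 0.05.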

How the results depend on the processing

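The count of 442 lost knockouts ranged from 306 to 506 over the alternatives run, except in the fit of all 41 libraries, which gave 247, and 147 genes were lost under each of 17 alternatives. Leaving out a library gave 386 to 502. The count of 11 gained knockouts was less stable, at 3 with values as deposited, 85 when centred on all sgRNAs, 18 when centred on the nontargeting mean, 7 without the lowest 10% of sgRNAs, 0 by the fit of all 41 libraries, 18 with a trend and robust prior, 6 with the median of the sgRNAs, 22 without the strongest sgRNA and 5 to 31 without single libraries (5 without T0 replicate 2 or 3, 6 without T0 replicate 1, 31, 17 and 22 without tumour replicates 1, 2 and 3). Taken over all genes, the median change moved to -0.58 with values as deposited and to 0.12 when centred on all sgRNAs. The 1383 lost sgRNAs became 322 without the lowest 10% of sgRNAs, which removes many of the lost ones, 461 by the fit of all 41 libraries, and 865 (without T0 replicate 3) to 1649 without single libraries. The 3 genes lower than in IgG became 1 with log2(value + 10) and 0 without the lowest 10%, with shared lowest values set to 0, with all 41 libraries or with the median of the sgRNAs, and 0 to 1 without single libraries. For genes higher than in IgG the count was 1 with a trend and robust prior and 0 to 1 without single libraries. Against the spleen it was 0 in every alternative, all on values that the authors had corrected between organs.

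T0 and tumour replicates of the same number did not deviate together (r = -0.10, -0.14 and -0.06), nor did IgG and anti-PD-1 replicates. With the replicate block 429 knockouts were lost and 8 gained, 421 of the lost ones shared with the 442.

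Among the genes named, 31 values changed sign and the cause was not tested except as said. With values as deposited these were *Alg12* (-0.32), *Dpm1* (-0.34), *Dpm2* (-0.045), *Dpm3* (-0.17), *Impdh1* (-0.28) and *Pdha1* (-0.018), and when centred on all sgRNAs *Alas2* (0.12), *Alg3* (0.026) and *Polr3g* (0.15), none of them called. Without the lowest 10% of sgRNAs, which drops their low sgRNAs, the values were 0.20 for *Alas1*, 0.43 for *Atp6v1b2*, 0.46 for *Dld*, 0.58 for *Ganab*, 0.49 for *Gm4737* and 0.74 for *Pola2*. With the median of the sgRNAs *Dpm1* was -0.12, *Gm4737* 0.51 and *Impdh1* -0.26, and without the strongest sgRNA *Crat* was 0.19, *Gm4737* 0.50 and *Polr3g* 0.027. Without single libraries *Dpm1* ranged from -0.023 to 0.16, *Alg12* from -0.12 to 0.31, *Alas2* from -0.38 to 0.10, *Impdh1* from -0.068 to 0.21 and *Polr3g* from -0.68 to 0.10. Since depth is unknown, small changes cannot be separated from counting error.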
